A study of Canis lupus familiaris with 60 samples.

Results

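GFI1 was followed as a single gene through the canine skin arrays. Its members are the probes annotated with the transcript NM_001012719, and 1 of the 54633 identifiers on the array is this one, with 1 probe of 60068, printed as 1 spot. The gene was chosen by its measured difference between allergen and saline at 6 hr in the sensitized dogs, so every 6 hr value of GFI1 is given as a description with no test. GFI1 is a zinc finger protein that represses transcription by recruiting histone-modifying corepressors through its SNAG domain. It is known for restraining stem cell division and for directing myeloid precursors toward granulocytes. In T lymphocytes it is induced by activation and by IL-4 signalling and favours the expansion of type 2 helper cells.

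The tissue was chest skin of 12 young adult Beagle dogs kept under the same housing and feeding. The 6 sensitized dogs had been exposed repeatedly through the skin to the house dust mite Dermatophagoides farinae, and the 6 nonsensitized dogs had not. Each dog gave 5 punch biopsies under local lidocaine: untreated clipped skin at 0 hr, and a mite paste (allergen) and a saline patch site at both 6 hr and 24 hr. Saline sites are therefore controls from the same animal, and they share the clipping, the bandage and the earlier biopsies. The sexes were unevenly divided between the groups, and the labels do not give the sex of a dog. Each biopsy was hybridized to 1 array, which gives 60 arrays in 10 groups. Specimen 14, the 24 hr allergen site of sensitized dog 2839, was left out as in the methods, so 59 arrays were used and that group has 5. The number of dogs limits the precision of every comparison.

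The tissue label was checked against marker genes. The keratinocyte genes KRT1 and DSG1, the fibroblast genes COL1A1, COL1A2 and DCN and the endothelial gene VWF were well above background on 59 of the 59 arrays. The GFI1 spot was well above background on 60 of the 60 arrays, with no outlier flag. It was dim: its processed signal, the spot brightness after background subtraction, ran from 18.6 to 152.0, and the spot was between 1.6 and 9.02 times as bright as its local background. Levels below are on a variance-stabilized log2 scale (vsn). This scale behaves like the log of the signal plus a constant that runs over the arrays from 8.2 through a median of 14.9 to 29.5 signal units, so a difference of GFI1 on it can be smaller or larger than the ratio of its signals, or differ in sign.

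In untreated skin the levels of GFI1 could not be distinguished between the groups of dogs. The signals of the 6 sensitized dogs ran from 25.7 through a median of 33.0 to 51.6, and those of the 6 nonsensitized dogs from 18.6 through 30.55 to 45.3. The ranges overlapped over most of their length. The mean levels were 5.58 ± 0.29 (SD, n = 6) and 5.59 ± 0.37 (SD, n = 6), a difference of -0.01 on the log2 scale with a 95% interval from -0.36 to 0.34. It did not pass the limits used here, a limma adjusted p under 0.05 together with a difference of 1.5-fold or more (adjusted p = 1). An exact two-sided permutation of the dogs gave p = 0.946. Of all 45972 probes tested, 0.00218% passed the limits in this comparison.

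At 6 hr, the time for which the gene was chosen, the sensitized dogs had more GFI1 at the allergen site than at the saline site in 6 of 6 dogs. At their saline sites the signals ran from 20.3 through a median of 28.2 to 33.6, and at their allergen sites from 36.2 through 66.15 to 131.1. The ranges did not overlap. The ratio of allergen to saline signal had a median of 2.37, with 1.25 in dog 2855 as the lowest and 4.18 in dog 2839 as the highest. On the log2 scale the difference was 0.96 ± 0.32 (SD, n = 6), and 0.90 over the 5 dogs whose patch sites lay on the same slide. It was 1.31 with scaling to the 75th percentile and 0.59 with a normexp background correction (offset 50) and quantile scaling together.

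The nonsensitized dogs showed no such separation at 6 hr. Their saline sites had signals from 32.6 through a median of 46.15 to 59.0, and their allergen sites from 29.4 through 49.85 to 62.4. These ranges overlapped almost fully. The difference was 0.09 ± 0.23 (SD, n = 6), with a lowest value of -0.22 in dog 2845 and a highest of 0.49 in dog 2704. In dog 2800 the log2 difference was 0.00 while the ratio of its signals was 0.81. Over the 2 dogs with both sites on the same slide the mean was -0.11. The difference between the groups of dogs was 0.87 on the log2 scale.

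The saline levels of the groups of dogs lay apart as well. In sensitized dogs the 6 hr saline level was 5.51 ± 0.17 (SD, n = 6), which lay -0.07 from untreated skin. In nonsensitized dogs it was 6.07 ± 0.24 (SD, n = 6), which lay 0.47 above untreated skin. The 6 hr allergen level was 6.47 ± 0.32 (SD, n = 6) in sensitized dogs. The level at the same sites of nonsensitized dogs was 6.15 ± 0.25 (SD, n = 6). The 6 hr allergen arrays lay on slides 5 to 7 in sensitized and on slides 4 and 8 in nonsensitized dogs, so slide and group of dogs cannot be told apart there, and no nonsensitized dog had its untreated and its 6 hr saline array on the same slide. These values belong to the contrast that chose the gene and were not tested.

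**Figure D1:**
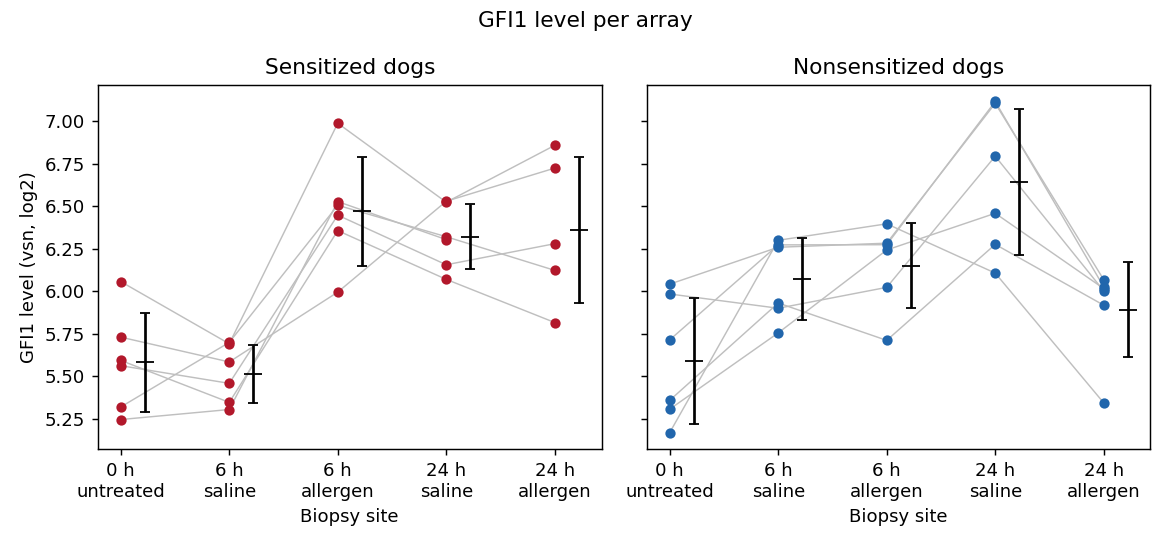
GFI1 level (variance-stabilized log2) on each of the 59 arrays, by biopsy site, with sensitized dogs in the left panel and nonsensitized dogs in the right; grey lines join the biopsies of a dog, and the bars show the group mean and SD. The 24 hr saline sites of nonsensitized dogs have the highest mean (6.64) and the 6 hr saline sites of sensitized dogs the lowest (5.51).

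At 24 hr the 2 groups of dogs were arranged differently. In nonsensitized dogs GFI1 was lower at the allergen site than at the saline site in 6 of 6 dogs. Their saline signals ran from 56.0 through a median of 106.5 to 152.0, and their allergen signals from 23.5 through 53.25 to 62.9. The ranges overlapped only through the saline site of dog 2716, at 56.0. The ratio of allergen to saline signal had a median of 0.44, from 0.41 in dog 2800 to 0.62 in dog 2845. On the log2 scale GFI1 fell by 0.75 (SE 0.17, 95% interval -1.1 to -0.4, adjusted p = 0.012 by limma), which passed both limits. In this comparison 0.766% of all probes passed them, and 0.659% passed in the downward direction.

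The call in nonsensitized dogs was lost in several settings. It was lost without dog 2800 (-0.68, adjusted p = 0.111), without dog 2802 (-0.69, adjusted p = 0.0986) and over the 5 dogs with both sites on 1 slide (-0.68, adjusted p = 0.0971), a choice made after the data were seen. With normexp and quantile scaling together the difference was -0.51, under the fold limit. With the slide as a block the difference was -0.71 (adjusted p = 0.0137). Over the alternatives the adjusted p ran from 0.000647 to 0.111. An exact two-sided sign-flip test over the 6 dogs gave p = 0.0312, the smallest that 6 dogs allow (0.0624 after adjustment over the 10 exact tests).

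In the sensitized dogs at 24 hr no difference between the sites was detected. The saline signals ran from 59.2 through a median of 74.65 to 87.2. The allergen signals were 48.5 in dog 2838, 61.1 in dog 2840, 63.0 in dog 2841, 91.1 in dog 2855 and 127.7 in dog 2853. The allergen values spread to both sides of the saline values. The log2 differences were -0.25, 0.12, -0.20, 0.20 and 0.34 in the same order of dogs, higher in 3 of 5. In signals 2 of 5 were higher, since dog 2840 had a ratio of 0.99. The fitted difference was 0.04 (SE 0.18, 95% interval -0.32 to 0.41, adjusted p = 0.986 by limma), in a comparison where 0.274% of all probes passed the limits. An exact two-sided sign-flip test over the 5 dogs gave p = 0.75. Over the 2 dogs with both sites on the same slide the mean was 0.26. Specimen 14, which was not used, had a signal of 38.7.

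The direct comparison of both responses at 24 hr did not pass the limits when the dog was left out of the model. The allergen effect of sensitized dogs minus that of nonsensitized dogs was 0.79 (SE 0.25, 95% interval 0.29 to 1.29, adjusted p = 0.0961 by limma), and 0.935% of all probes passed. With the dog as a replicate block it was 0.77 with an adjusted p of 0.0149, past the limits, and 3.54% of all probes then passed. Array weights over all 60 arrays also moved it past them (0.84, adjusted p = 0.041). Over the alternatives the adjusted p ran from 0.0149 to 0.34. An exact two-sided permutation of the dogs over 462 splits gave p = 0.00433 (0.0433 after adjustment over the 10 exact tests).

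Compared between the groups of dogs, neither patch site alone passed at 24 hr. At saline sites the sensitized dogs differed from the nonsensitized dogs by -0.33 (exact two-sided permutation, p = 0.13). At allergen sites they differed by 0.47 (exact two-sided permutation, p = 0.0563). After adjustment over the 10 exact tests these p values were 0.163 and 0.0893. Both tests were added after the data were seen.

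**Figure D2:**
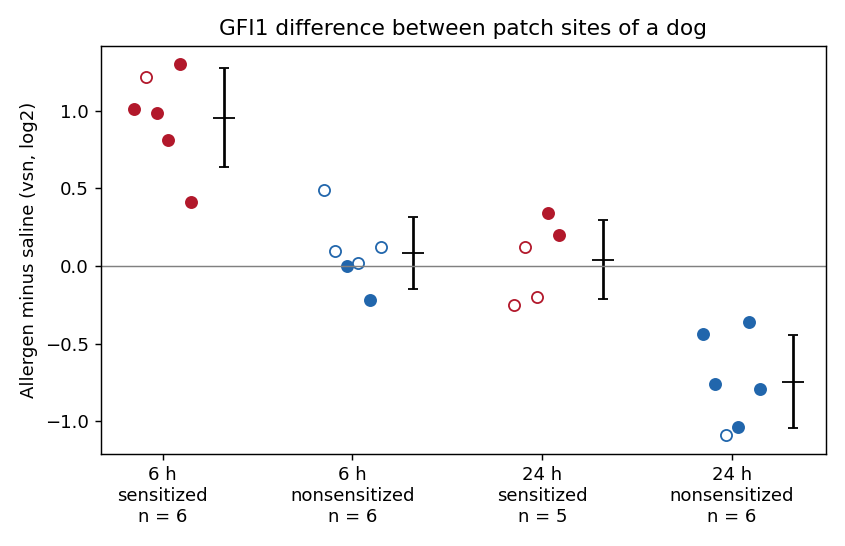
GFI1 difference between the allergen and the saline site of each dog (variance-stabilized log2) at 6 hr and 24 hr; each point is a dog, filled where both arrays lay on the same slide and open where they did not, and the bars show the mean and SD. At 6 hr the 6 sensitized dogs lie between 0.41 and 1.30, and at 24 hr the 6 nonsensitized dogs lie between -1.09 and -0.36.

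Against untreated skin GFI1 was higher at 24 hr at most kinds of site. Saline sites exceeded untreated skin in 6 of 6 sensitized dogs, by 0.73 (SE 0.17, adjusted p = 0.00104), and in 6 of 6 nonsensitized dogs, by 1.05 (SE 0.17, adjusted p = 1.77e-06). In sensitized dogs the allergen site exceeded untreated skin in 5 of 5, with 0.71 as the mean within dogs; the fitted difference of the 5 allergen and 6 untreated arrays was 0.78 (SE 0.18, adjusted p = 0.000661). In nonsensitized dogs the allergen sites lay 0.30 above untreated skin, in 6 of 6 dogs, which did not pass (SE 0.17, 95% interval -0.05 to 0.65, adjusted p = 0.155). These limma comparisons moved much of the array: 9.49% and 22.7% of all probes passed the limits for saline, and 13.8% and 17% for allergen, in sensitized and nonsensitized dogs.

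Slide and time are nearly confounded in these comparisons. The untreated biopsies lay on slides 6 to 8 and the 24 hr biopsies on slides 1 to 3, apart from 1 array of the fit on slide 8. With the slide as a block the saline differences were 0.60 (SE 0.37, adjusted p = 0.347) and 1.00 (SE 0.40, adjusted p = 0.148), and the allergen difference of sensitized dogs was 0.56 (SE 0.32, adjusted p = 0.229). None of these then passed. With the slide as a random block all 3 passed: 0.67 (adjusted p = 0.01) and 1.05 (adjusted p = 8.71e-05) for saline in sensitized and nonsensitized dogs, and 0.67 (adjusted p = 0.00509) for sensitized allergen. With normexp and quantile scaling together the sensitized differences were 0.43 for saline and 0.48 for allergen, under the fold limit. The unscaled signals gave 0.65 for the nonsensitized allergen sites (adjusted p = 0.0212), past the limits, where the median of all probes moved by 0.49. These sites gave 0.16 with scaling to the 75th percentile and 0.18 with normexp and quantile scaling together. Unscaled, the saline sites gave 1.10 in sensitized and 1.70 in nonsensitized dogs. With normexp and quantile scaling together the nonsensitized saline sites gave 0.69. Exact two-sided sign-flip tests gave p = 0.0312 for the 3 comparisons with 6 dogs and p = 0.0625 for the 1 with 5 dogs, the smallest these numbers of dogs allow (0.0624 and 0.0893 after adjustment over the 10 exact tests). The time of the biopsy and the slide largely cannot be told apart here. Saline sites also differ from untreated skin by the patch, the bandage and the earlier biopsies.

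Set in order, the 10 mean levels ran from 5.51 to 6.64. The lowest were the 6 hr saline sites of sensitized dogs (5.51) and the untreated skin of sensitized (5.58) and nonsensitized dogs (5.59). The nonsensitized 24 hr allergen (5.89 ± 0.28, SD, n = 6), 6 hr saline (6.07) and 6 hr allergen sites (6.15) followed. Above them stood the 24 hr saline (6.32 ± 0.19, SD, n = 6) and 24 hr allergen sites (6.36 ± 0.43, SD, n = 5) of sensitized dogs, their 6 hr allergen sites (6.47) and, highest, the 24 hr saline sites of nonsensitized dogs (6.64 ± 0.43, SD, n = 6). Each of the neighbours in this order differed by less than their pooled SD, and their ranges overlapped. Small steps between neighbours follow from sorting 10 means, so nothing is read from them. Groups further apart can be separate: the ranges of the 6 hr saline and 6 hr allergen sites of sensitized dogs did not overlap. The order also mixes slides, which are nearly confounded with time.

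The 8 named genes whose level followed GFI1 most closely over the 59 arrays come from the few genes with a symbol. Likeness was measured by Pearson's r among these 897 other genes, whose median r was -0.02; among all probes the 8 ranked from 7 to 94. CCL13, a chemokine that attracts monocytes and eosinophils, stood first with r = 0.80. MS4A2, the beta chain of the high-affinity IgE receptor of mast cells, and ICAM1, an adhesion molecule on which leukocytes dock, both had r = 0.76. The intracellular chloride channel protein CLIC2 and the monocyte chemokines CCL8 and CCL2 had r = 0.75. The pattern recognition receptor TLR2 had r = 0.72 and the IgG receptor FCGR1A had r = 0.71.

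The likeness holds less well within groups than across them. After removal of the 10 group means, r was 0.63 for MS4A2, 0.54 for CCL13 and 0.48 for CLIC2, and 0.22 for CCL2. Over the 35 arrays that were not from 6 hr, r was 0.89 for MS4A2 and 0.83 for CCL13. By Spearman's rho MS4A2 had 0.66 and CCL13 had 0.80, and 5 of the 8 genes were also among the 8 highest. At the other end stood ADGRL2 (r = -0.58), CCDC189 (r = -0.57), UACA (r = -0.56) and NPC1 (r = -0.56), the last a lysosomal cholesterol transporter. The arrays share dogs, slides and treatments, so these values describe the arrays and carry no test.

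**Figure D3:**
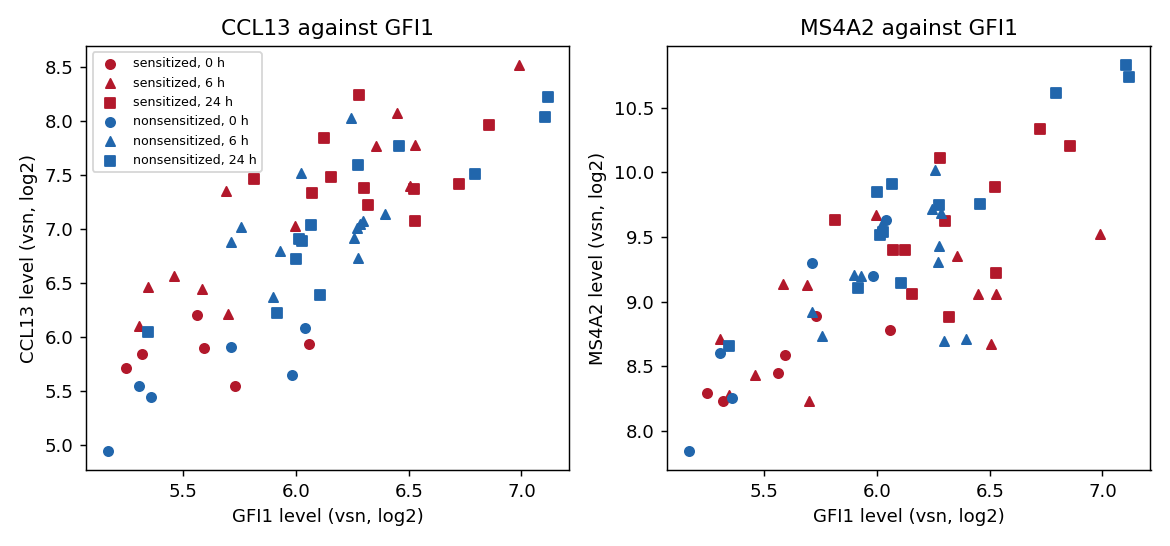
Level of CCL13 (left) and MS4A2 (right) against the level of GFI1 (all variance-stabilized log2) on the 59 arrays; colour gives the group of dogs and the symbol gives the time. Pearson's r is 0.80 for CCL13 and 0.76 for MS4A2.

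Of these 8 genes 6 also passed downward at the allergen site of nonsensitized dogs at 24 hr, where 0.659% of all probes did; they were picked on arrays that include these, so nothing is read from the count. CCL2 fell by 2.21 (SE 0.42, adjusted p = 0.0015), CCL8 fell by 2.20 (SE 0.42, adjusted p = 0.00171) and CLIC2 fell by 0.79 (SE 0.16, adjusted p = 0.00343), by limma. CCL13, ICAM1 and FCGR1A also passed. TLR2 (-0.58, adjusted p = 0.112) did not pass, and MS4A2 (-0.71, adjusted p = 0.207) passed only with the dog as a replicate block (-0.71, adjusted p = 0.000915; 1.35% of all probes then passed).

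Genes from lists around GFI1 gave the following counts. A gene could be placed only where its transcript was in the RefSeq table, which left 1 family member besides GFI1, SNAI2, out of a list of 8, none of the 11 corepressor partners and 5 of 18 genes known to be repressed by GFI1. SNAI2, a repressor of the Snail family with the same SNAG domain, passed in none of the comparisons of sensitization or of allergen with saline. The repressed genes ELANE, CDKN2B, CSF2, SOCS3 and BAX also passed in none of them, where at most 0.935% of all probes did, so nothing about these genes is read from the count. At 24 hr their median difference was -0.09 in nonsensitized and 0.06 in sensitized dogs, against 0.006 and 0.000 over all probes. SOCS3 was well above background at 4 of 6 saline and 2 of 6 allergen sites of nonsensitized dogs at 24 hr. The authors list SOCS3 as higher in the difference between the responses at 24 hr, with quantitative PCR in the same direction. The dim probe used here gave 0.27 in that comparison (SE 0.16, adjusted p = 0.473 by limma), so it does not show that SOCS3 was unchanged. CSF2, a cytokine for granulocytes and macrophages, had r = 0.64 with GFI1 and was well above background on 50 of 59 arrays. ELANE, the neutrophil elastase, had r = -0.15, BAX had 0.37, CDKN2B had -0.26 and SOCS3 had -0.06. The mean level of the 5 had r = 0.43.

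Of the type 2 lymphocyte list 7 of 18 genes could be placed and 4 were measured; IL4, IL5 and IL2RA did not pass the filter on dim probes. IL13RA2, a decoy receptor for IL-13, was higher at the allergen site of sensitized dogs at 24 hr (1.02, SE 0.26, adjusted p = 0.0444; with scaling to the 75th percentile 1.09, adjusted p = 0.0668, not past the limits) and lower at that of nonsensitized dogs (-1.19, SE 0.25, adjusted p = 0.00375), by limma. Its difference between the responses was 2.22 (SE 0.36, adjusted p = 0.00141). IL33, an alarmin of epithelial cells, was lower in nonsensitized dogs (-1.78, SE 0.45, adjusted p = 0.0252). Its difference between the responses was 1.55 (SE 0.65, adjusted p = 0.239 by limma), which did not pass. With the dog as a replicate block it passed (1.57, adjusted p = 0.00432), where 3.54% of all probes did. The authors list IL33 as higher in that comparison, on their arrays and by quantitative PCR. At 24 hr 0.274% of all probes passed in sensitized dogs, 0.766% in nonsensitized dogs and 0.935% in the difference between the responses. IL13 had r = 0.69 with GFI1 and was well above background on 32 of 59 arrays. In sensitized dogs it was so at 1 of 6 saline and 4 of 6 allergen sites at 6 hr, and at 3 of 6 and 5 of 5 at 24 hr. In nonsensitized dogs it was so at 3 of 6 and 6 of 6 at 6 hr, and at 5 of 6 and 5 of 6 at 24 hr. No size of its difference is therefore given. It passed in none of the comparisons without the dog as a block, where at most 0.935% of all probes did. With the block, IL13 passed upward in sensitized dogs at 6 hr (adjusted p = 0.0253) and 24 hr (adjusted p = 0.024), by limma. In these comparisons 0.887% and 1.08% of all probes passed. IL13 also passed upward in the difference between the responses at 24 hr (adjusted p = 0.0151 by limma), where 3.54% did. With scaling to the 75th percentile it passed at 6 hr only (adjusted p = 0.0364). IL17A had r = -0.38 with GFI1 and passed in none of the comparisons.

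Of the early inflammatory list 9 of 12 genes were measured. At 6 hr 6 of the 9 passed upward in sensitized dogs, where 0.402% of all probes did, and 10 listed genes in all passed with the dog as a replicate block (0.887% of all probes) against 6 without it (0.418%). CCL8 was 2.89 higher (SE 0.42, adjusted p = 6e-05), CCL2 2.85 higher (SE 0.42, adjusted p = 6e-05), PTGS2, the inducible cyclooxygenase, 2.56 higher (SE 0.45, adjusted p = 0.00128) and the endothelial selectin SELE 2.47 higher (SE 0.39, adjusted p = 0.000239), by limma. IL6 and ICAM1 passed too; IL6 was well above background at 6 of 6 allergen sites and at 0 of 6 saline sites. In nonsensitized dogs at 6 hr none of the 9 passed (0.0348% of all probes), and none passed in the difference between the groups of dogs, where limma called 0% of all probes and 525 had an unadjusted p below 0.05. The median difference of the 9 genes at 6 hr was 2.56 in sensitized and 0.91 in nonsensitized dogs.

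At 24 hr 4 of the 9 early inflammatory genes, IL6, CCL2, CCL8 and ICAM1, passed downward at the allergen site of nonsensitized dogs, against 0.659% of all probes; the other 5 did not pass. IL6 was well above background at 6 of 6 saline sites and at 1 of 6 allergen sites. None of the 9 passed in sensitized dogs, and SELE did with the dog as a replicate block (1.51, adjusted p = 0.0159). The difference between the responses passed upward for 4 of the 9, IL6, CCL2, CCL8 and SELE, against 0.598% of all probes. With the dog as a replicate block 6 listed genes passed in sensitized dogs at 24 hr against 2 without it (1.08% of all probes), and 16 against 6 in the difference between the responses, where the share of all probes went from 0.935% to 3.54%. The 16 include the granulocyte marker CCR3, which met the filter only through the sensitized 24 hr allergen sites. The lists were chosen with earlier results of these data known, and no test of a list was made.

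Markers of cells found in inflamed skin were set beside GFI1. Of the mast cell list 4 of 7 genes were measured, and their mean level had r = 0.69 with GFI1 over the 59 arrays. Singly, r was -0.24 for KIT, 0.53 for CMA1, 0.69 for FCER1A and 0.76 for MS4A2, the last also picked above for its likeness. In nonsensitized dogs at 24 hr that mean level ran from 9.25 through a median of 9.79 to 10.27 at saline sites and from 8.91 through 9.37 to 9.60 at allergen sites. In sensitized dogs, where no difference of GFI1 was detected, it ran from 8.92 through 9.28 to 9.76 at saline sites and from 9.00 through 9.81 to 10.02 at allergen sites. None of the 4, KIT, CMA1, MS4A2 and FCER1A, passed in any comparison of allergen with saline without the dog as a block. At most 0.935% of all probes passed in these comparisons. With the block, MS4A2 passed at 24 hr upward in sensitized dogs (0.59, adjusted p = 0.0117 by limma), where 1.08% of all probes passed. It passed downward in nonsensitized dogs, where 1.35% did. CMA1, MS4A2 and FCER1A passed upward in the difference between the responses, against 3.54% of all probes. FCER1A, the alpha chain of the IgE receptor, was the brightest of them.

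The 5 of 13 neutrophil and granulocyte markers that were measured had a mean level with r = 0.55 to GFI1. Singly, r was 0.22 for CXCR2, 0.44 for S100A8, 0.49 for MMP9, -0.15 for ELANE and 0.59 for CCR3. The mean level of the 5 had medians of 8.08 at saline and 7.89 at allergen sites of nonsensitized dogs at 24 hr, and of 7.85 and 8.71 in sensitized dogs. In sensitized dogs at 24 hr the log2 difference was 2.44 for S100A8, 1.22 for MMP9, 0.03 for CXCR2 and -0.02 for ELANE; CCR3 was well above background at 3 of 6 saline and 5 of 5 allergen sites. None of the 5 passed without the dog as a block, where at most 0.935% of all probes did. S100A8, a calcium-binding protein abundant in neutrophils, was the brightest. With the block it passed upward in sensitized dogs at 6 hr (2.28, adjusted p = 0.0074) and 24 hr (2.45, adjusted p = 0.003), by limma. In these comparisons 0.887% and 1.08% of all probes passed. S100A8 also passed upward in the difference between the responses at 24 hr (3.54% of all probes). CCR3 passed there too, but was well above background on 20 of 59 arrays. It met the filter only through the sensitized 24 hr allergen sites, a group of that comparison, so nothing is read from its call. The macrophage marker CD163, the only 1 of 7 that could be placed, had r = 0.63. It lay at -0.91 (SE 0.27, adjusted p = 0.0769 by limma) in nonsensitized dogs at 24 hr, where 0.766% of all probes passed. With the dog as a replicate block it passed downward (-0.91, adjusted p = 0.0121 by limma), where 1.35% did. Of the T cell list 3 of 10 genes were measured. CD28, the costimulatory receptor, was higher at the allergen site of sensitized dogs at 24 hr (0.74, SE 0.14, adjusted p = 0.00288 by limma). There 0.274% of all probes passed. With scaling to the 75th percentile the CD28 difference was 1.22. CD28 was well above background on 33 of 59 arrays, and in this comparison at 5 of 6 saline and 5 of 5 allergen sites. CD4 (0.04) and CD8A (0.17) did not pass. Over the 59 arrays r with GFI1 was 0.54 for CD28, -0.20 for CD4 and -0.12 for CD8A.

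Without the dog as a block, no gene of the resident skin cell lists passed in a comparison of allergen with saline or of sensitization, where at most 0.935% of all probes did. They comprised 2 of 8 keratinocyte, 3 of 6 fibroblast and 2 of 6 endothelial genes, of which KRT1, COL1A2 and VWF were the brightest. The endothelial receptor KDR lay at -0.56 in nonsensitized dogs at 24 hr, under the fold limit (adjusted p = 0.0263 by limma, 0.00455 with the dog as a block). With the block, KDR passed upward (0.62, adjusted p = 0.0302 by limma) in the difference between the responses at 24 hr. DSG1, a desmosomal cadherin of keratinocytes, passed downward there (-0.59, adjusted p = 0.0417 by limma), where 3.54% of all probes passed. Without the block DSG1 lay at -0.6 in this comparison (adjusted p = 0.101 by limma). The authors list DSG1 as lower in that comparison, with quantitative PCR in the same direction. They also list the keratinocyte gene LOR as lower, which could not be placed here. With 2 of 8 keratinocyte genes measured, the list does not show that keratinocyte genes were unchanged. KDR had r = 0.63 with GFI1, VWF had r = -0.36 and the mean of both had r = 0.22; DSG1 had r = -0.53. The B cell gene MS4A1 did not pass the filter, and no Merkel cell gene could be placed. In whole biopsies a change in the number of cells of a type and a change in RNA per cell cannot be told apart, and the part of cell numbers in the GFI1 results was not tested.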

How the data were processed

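The intensity values are processed signals that the authors made with Agilent Feature Extraction (10.7.3.1, per the submitters' processing notes), and they deposited them unscaled. In 2 arrays, both of nonsensitized dog 2847, signals are rounded to whole numbers. Outlier spots were set to missing. Spots were kept when 5 or more arrays of any group had them well above background (45972 probes), normalized by a reimplementation of vsn tested on simulated data, and averaged per probe. The package limma (3.58.1, R 4.3.3) fitted the 10 group means jointly and unpaired, with Benjamini-Hochberg adjustment. Exact tests over dogs, 10 in all, were added after the data were seen. The dog pairs the biopsies: residuals had a median correlation of 0.386 for arrays of the same dog and -0.034 otherwise. Names come from RefSeq accessions (UU_Cfam_GSD_1.0), which placed 1066 symbols, a gene counting by its brightest probe. Named were the 8 genes most like GFI1, the 4 least like it, listed genes that passed, up to 4 a list, and the brightest marker; others named were chosen with values seen. The gene and the lists were chosen with earlier results of these data known. Alternatives covered arrays, scaling, background, filter, dog and slide blocks, time points and each dog left out. Figures used matplotlib 3.10.9, and exact tests scipy 1.17.1 with numpy 2.4.6 (Python 3.11.15).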

Additional observations from a re-analysis of the deposited data

Results flagged for a closer look

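One dog stood apart from the others in its group on 2 measures. At the 24 hr allergen site of nonsensitized dogs, dog 2716 had a GFI1 level of 5.34, below the other 5 by 0.79 of the whole range of the group. The same dog had the lowest difference between its 24 hr and its 6 hr allergen site (-1.05, with a gap of 0.64 of the range). Both measures use the same array, 26 groups of values were examined, and about 1 in 20 is marked by chance at this limit. Without dog 2716 the 24 hr difference between allergen and saline in nonsensitized dogs was -0.74 (adjusted p = 0.0134 by limma).

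The response to allergen at 24 hr differed between the groups of dogs by 0.79 on the log2 scale (exact permutation over dogs, two-sided, p = 0.00433, 0.0433 after adjustment over the 10 exact tests), while limma across all probes gave an adjusted p of 0.0961. That fit left the dog out of the model, and with the dog as a replicate block limma gave 0.77 (adjusted p = 0.0149). On the log2 scale the allergen site was lower than the saline site in 6 of 6 nonsensitized and in 2 of 5 sensitized dogs (3 of 5 by signal).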

How the results depend on the processing

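Of 254 recalculated values over 11 results for GFI1, 226 kept sign and side of the limits or, at 6 hr, where no test was made, moved by less than 1 SD; 13 turned sign, 9 no longer passed, 3 came to pass and 3 at 6 hr moved further. The 24 hr allergen effect in nonsensitized dogs no longer passed with normexp and quantile scaling (-0.51, under the fold limit) or pairs on 1 slide (-0.68). Leaving out each dog gave -0.83 to -0.68, and the effect no longer passed without dog 2800 or without dog 2802. The replicate block on the dog took the 24 hr difference of responses past the limits (0.77), as did array weights (0.84); leaving out dogs gave 0.71 to 0.88. The block changed no other call of GFI1. It raised the listed genes that passed from 6 to 10 at 6 hr in sensitized dogs, from 2 to 6 at 24 hr in sensitized dogs (1 with scaling to the 75th percentile) and from 6 to 16 in the 24 hr difference of responses, while probes that passed rose from 192 to 408, 126 to 497 and 430 to 1626. The 16 include CCR3, which met the filter only through the sensitized 24 hr allergen sites. With the slide as a block, 24 hr against untreated skin no longer passed for saline (0.60 and 1.00) or sensitized allergen (0.56), and with it as a random block all 3 passed; with normexp and quantile scaling, for sensitized saline (0.43) and allergen (0.48). Leaving out dogs gave 0.67 to 0.79 and 0.98 to 1.10 for saline and 0.71 to 0.91 and 0.22 to 0.36 for allergen. Unscaled values took nonsensitized allergen against untreated skin past the limits (0.65), where the median of all probes moved by 0.49; it was 0.16 scaled to the 75th percentile and 0.18 with normexp and quantile scaling. Saline against untreated skin was 1.10 and 1.70 unscaled, and 0.69 in nonsensitized dogs with normexp and quantile scaling. The 6 hr difference of sensitized dogs was 1.31 scaled to the 75th percentile, 1.34 unscaled and 0.59 with normexp and quantile scaling, and 0.89 to 1.07 without each dog; for nonsensitized dogs that range was 0.01 to 0.15 and pairs on 1 slide gave -0.11, and for the difference between them 0.80 to 0.98. Other signs turned for values near 0: untreated skin was 0.01 scaled to the 75th percentile, 0.06 with array weights, 0.13 unscaled, 0.02 with no filter and -0.11 to 0.08 without each dog, and the sensitized 24 hr difference was -0.04 with the slide as a block, -0.00 as a random block and -0.04 to 0.13 without each dog. Causes were not tested. MS4A2 moved from r = 0.76 to rho = 0.66. No dog block could be fitted for untreated skin, no separate fit per time for 24 hr against untreated skin, and no 1-slide pairs outside allergen against saline.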
